A study of Mus musculus with 10 samples.

Results

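Translation initiation factors were compared between mouse cardiomyocytes (heart muscle cells) that carried dnMKL1 and those that carried GFP alone. The members were the genes of the authors' deposited table whose symbol is Eif followed by a digit, leaving out the eIF2 kinases (Eif2ak), the eIF4E-binding proteins (Eif4ebp), the sex-linked Eif2s3 pair and genes listed at 0. That rule gave 47 of the 23337 genes in the table. Eif4e1b and Eif3j were the 2 genes left out because they were listed at 0. Of the 47, 43 are initiation factors or their close relatives. The other 4, Eif2c1 to Eif2c4, are older symbols of the Argonaute genes Ago1 to Ago4, which act in RNA silencing, so that for them the label does not hold; they were kept because the rule takes them, and are described apart.

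Both groups were wild-type mice given 5e+08 viral genomes per gram on postnatal day 1, with cells taken on postnatal day 14. The 5 GFP libraries came from mice given AAV9-cTNT-GFP and the 5 dnMKL1 libraries from mice given AAV9-cTNT-dnMKL1-GFP, an adeno-associated virus in which the cardiac troponin T promoter drives expression in cardiomyocytes. dnMKL1 is a dominant-negative form of MKL1 (MRTF-A), a coactivator of the transcription factor SRF. The labels call the samples biological replicates, and do not give the sex or litter of the mice.

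Initiation assembles a ribosome at the start codon of an mRNA. The eIF4 proteins bind the cap and unwind the leader, eIF3 links the mRNA to the small ribosomal subunit, eIF2 brings the initiator tRNA, and eIF1 and eIF5 control the choice of the start codon. eIF2 must be recharged with GTP by eIF2B after each round, the step that the stress-activated eIF2 kinases block, and eIF4E is held back by the eIF4E-binding proteins under control of mTOR. Heart muscle cells of young mice grow by adding protein, for which initiation is a main control point.

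By the authors' adjusted p-value under 0.05, 2 of the 47 members were higher in dnMKL1 libraries (Eif5a2 and Eif3h) and 7 were lower (Eif2b4, Eif4e, Eif4e3, Eif1, Eif5a, Eif2b1 and Eif4e2), although 4 of those 7 (Eif1, Eif5a, Eif2b1 and Eif4e2) turned to values above 0 under total-count scaling. The 9 called members were 19.1% of the 47, against 34.1% over the 14056 genes that the authors' adjustment covered. Split by direction, the background was 16.6% higher and 17.4% lower. The 2 changes above 0.5 on the log2 scale were those of Eif5a2, which rose to 2.20-fold, and Eif2b4, which fell to 0.639-fold. Such changes made up 4.26% of the members and 30.2% of all tested genes, 2 sets that differ in level. The tested genes include 2142 under 10 normalized counts, with a median absolute log2 fold change of 0.61, and the lowest member was at 52.3. From 100 to 1000 normalized counts that median was 0.15 for members and 0.23 for all tested genes. From 1000 to 10000 it was 0.096 and 0.25. At an unadjusted p under 0.05 there were 13 of 47 members (27.7%), against 33.8% of the 17363 genes with a p-value. By group these were 3 of 11 start codon and initiator tRNA factors, 2 of 5 eIF2B genes, 2 of 12 eIF3 genes, 4 of 12 eIF4 genes, 2 of 3 eIF5A and eIF6 genes and 0 of 4 Argonaute genes. The median log2 fold change was -0.084 over the 47 members, also without the Argonaute genes, and 0.038 over the 17371 genes with a fold change.

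**Figure D1:**
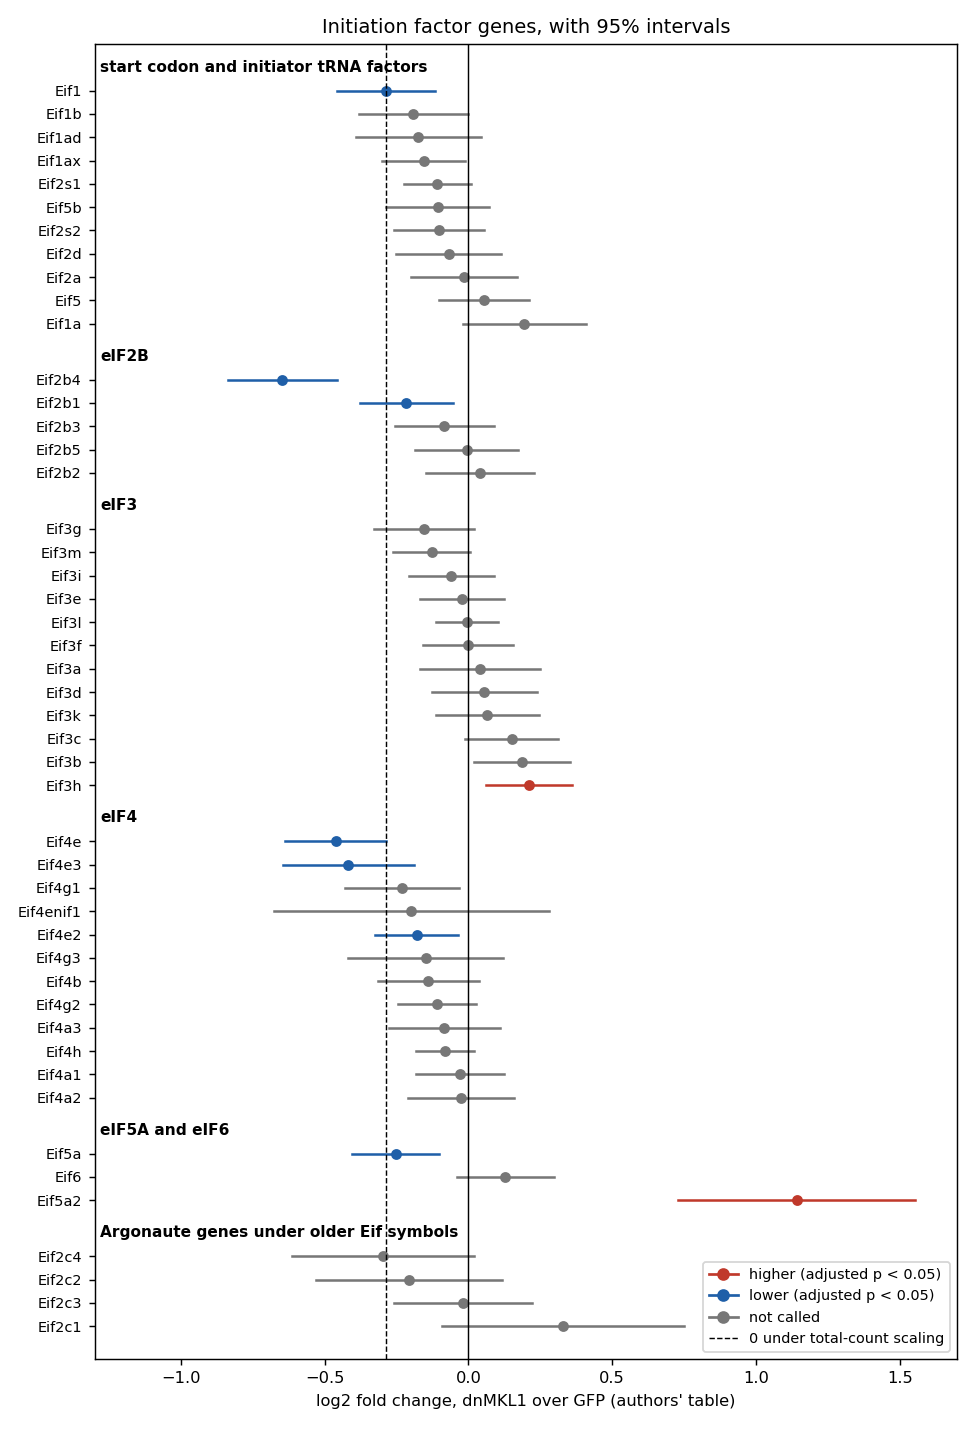
Log2 fold change of each of the 47 genes (dnMKL1 over GFP, x axis) by role, with points for the deposited values and bars for 95% intervals from the deposited standard errors. Genes called higher are red and genes called lower are blue; Eif5a2 at 1.14 and Eif2b4 at -0.65 lie farthest from 0, and the dashed line marks where 0 falls under total-count scaling, to the right of which 4 of the 7 blue points lie.

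All fold changes depend on how the libraries are scaled. The summed group means implied by the table were 13330302 normalized counts for GFP and 10915829 for dnMKL1, so that scaling both groups to the same total adds 0.29 to every log2 fold change. With that constant added and the deposited standard errors kept, 27 members were called higher and 1 lower. The standard errors were not estimated anew for total-count scaling, so all calls under it are approximate. The median of the members was then 0.20, and that of the 17371 genes with a fold change was 0.33. Under the authors' scaling the median was 0.0041 over the 11922 genes with a base mean (mean normalized count) of 10 or more. Among the 140 tested genes above 10000 normalized counts it was -0.60 under the authors' scaling. The share of members called under total-count scaling was 59.6%, above the 47% of all tested genes (5685 higher and 927 lower). Under the authors' scaling it was below the background. The 47% covers genes of every level, and shares by level were not computed under total-count scaling. The same members thus summed to less in dnMKL1 libraries under the authors' scaling, 76520 against 82569 normalized counts, and to a larger share of all normalized counts, 0.701% against 0.619%. Changes are given below under the authors' scaling. Every value between -0.29 and 0 there, for a gene or for the median of a list, lies above 0 under total-count scaling, and this is repeated below only for members that were called.

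The table gives no values per library, so each gene is described by its implied mean in each group and by the deposited standard error (SE), which carries the spread over 5 libraries a group. Library totals estimated from the size factors lay between 8803028 and 17123577 for GFP and between 8835136 and 17228616 for dnMKL1. Mkl1, which tells the direction of the fold change, had implied means of 83.9 normalized counts in GFP and 74899 in dnMKL1 libraries. For Srf, its partner, and the common reference genes Actb and Gapdh, the authors' deposited table gave -0.80 (SE 0.10), -0.37 (SE 0.22) and -0.36 (SE 0.13), of which Srf and Gapdh were called lower, and under total-count scaling all 3 stayed below 0 while Gapdh, at -0.076, was no longer called. Cardiomyocyte markers identified the cells: the 7 summed to 1403930 normalized counts in GFP and 763958 in dnMKL1 libraries. Their share of all normalized counts was 10.5% and 7.0%. Of the 7, 5 were called lower (71.4%). All 7 lay above 10000 normalized counts, a level at which 70.7% of the 140 tested genes were called lower. Over all tested genes of any level, 16.6% were called higher and 17.4% lower. Among markers of other cells, fibroblast genes (3 of 6 higher) summed to 3188 and 4413 normalized counts and endothelial genes (0 of 6 called) to 2375 and 2448. Mural genes (2 higher and 1 lower of 6) summed to 11745 and 7919. Most of that sum was Acta2, the gene called lower, at 10454 and 4999. The other 5 mural genes had log2 fold changes above 0, and the median of the list was 0.11. Macrophage genes (1 of 5 higher) summed to 134 and 120. Of 6 erythroid markers 2 were not in the table, 2 were listed at 0 and the rest summed to 6.60 and 7.75. The part of these shifts in the results below was not tested. In such samples fewer cells of a type, less RNA per cell and altered expression of the marker genes themselves cannot be told apart.

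Eif5a2 and Eif5a encode paralogs that carry the modified amino acid hypusine and help ribosomes past difficult peptide bonds, and in these data they were called in opposite directions, Eif5a not under total-count scaling. Their promoters are shown because the pair diverged, and that of Eif4e because it fell most among the eIF4 genes. The sequences are RefSeq promoter windows on GRCm38.p6 with the bases in annotated exons taken off, in the direction of the gene; capitals mark matches on either strand to CACGTG (an E-box, the site type of MYC and related factors) or CCGGAAG (the site type of ETS factors).
Eif5a2 (chr3:28781109-28781275, plus strand): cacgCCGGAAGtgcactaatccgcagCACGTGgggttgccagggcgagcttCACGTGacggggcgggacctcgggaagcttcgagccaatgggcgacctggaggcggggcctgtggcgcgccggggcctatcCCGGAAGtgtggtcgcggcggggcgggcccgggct
Eif5a (chr11:69921387-69921636, minus strand, 1 of 6 annotated starts): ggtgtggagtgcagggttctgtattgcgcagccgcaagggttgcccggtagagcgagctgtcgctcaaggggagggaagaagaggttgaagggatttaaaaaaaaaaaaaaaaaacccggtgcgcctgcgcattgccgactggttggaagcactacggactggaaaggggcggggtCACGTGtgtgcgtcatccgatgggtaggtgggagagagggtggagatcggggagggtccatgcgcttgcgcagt
Eif4e (chr3:138525941-138526178, plus strand, 1 of 2 annotated starts): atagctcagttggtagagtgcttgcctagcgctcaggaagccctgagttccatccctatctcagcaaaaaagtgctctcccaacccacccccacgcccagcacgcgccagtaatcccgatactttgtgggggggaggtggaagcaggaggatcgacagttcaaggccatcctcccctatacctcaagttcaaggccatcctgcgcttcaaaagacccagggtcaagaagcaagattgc
The Eif5a2 stretch held 2 E-boxes and 2 ETS-type matches, the Eif5a stretch held 1 E-box, and the Eif4e stretch held neither. At another of its starts Eif5a also had an ETS-type match, as Eif4e had E-boxes. Over windows of 300 bases, 10 of the 38 members with a promoter entry had an E-box (26.3%) and 15 had an ETS-type match (39.5%). Among all tested genes that have a promoter entry, the shares were 11.6% and 18.5%. Of the 7 called members with an entry, 3 had an E-box (Eif5a2, Eif5a and Eif4e) and 4 had an ETS-type match. The CArG box, the motif of SRF, was found in 1 of the 38, Eif2s1, which was not called, and in 1.66% of the tested genes. The ATF4-type motif TGATGNAA was found in 0 of the 38 and in 2.74% of the tested genes. A match describes letters in a window, not a bound site, and no test was made of these shares.

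Eif5a2 had the lowest base mean of the 47. Its implied mean was 32.7 normalized counts in GFP and 72.0 in dnMKL1 libraries. The authors' deposited table put the log2 fold change at 1.14 (SE 0.21), with an adjusted Wald p of 8.12e-07 and a 95% interval of 1.66-fold to 2.93-fold. Eif5a, the ubiquitous form, had implied means of 5914 in GFP and 4965 in dnMKL1 libraries. The authors' deposited table put its log2 fold change at -0.25 (SE 0.08), which became 0.036 under total-count scaling. Per kilobase of transcript, Eif5a had the highest base mean of the members, 3785 normalized counts, and Eif5a2 had one of 10.4, so that the rising paralog was the minor form in both groups. Eif6, which keeps the large ribosomal subunit from joining too early, had a log2 fold change of 0.13 (SE 0.09) in the authors' deposited table and was not called.

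**Figure D2:**
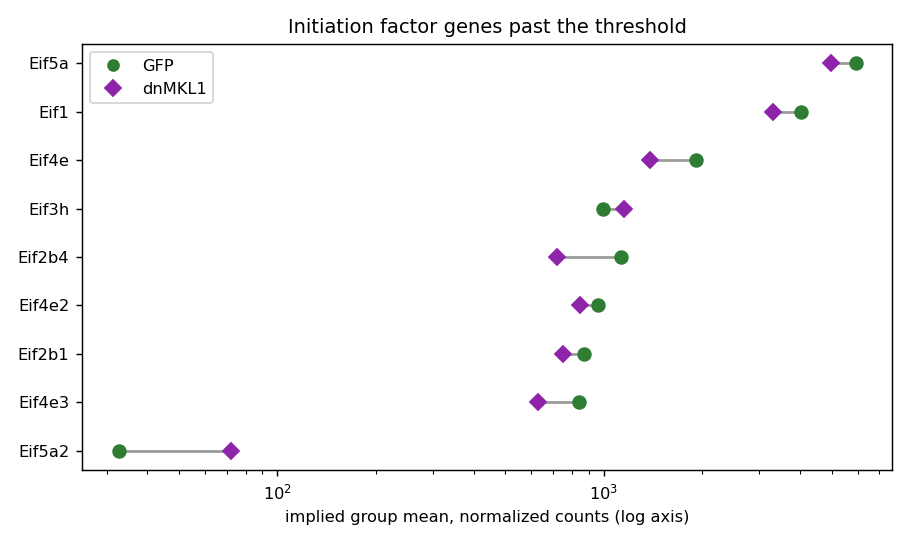
Implied group means of the 9 members past the adjusted p-value threshold, in normalized counts on a log axis, with circles for GFP and diamonds for dnMKL1. Eif5a2 lies far below the others at 32.7 and 72.0, and among the other 8 the widest gap is that of Eif2b4, from 1128 to 721.

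eIF2B is the guanine nucleotide exchange factor of eIF2, built from 5 different subunits. Eif2b4, which encodes the delta subunit, fell most of all members. Its implied mean went from 1128 normalized counts in GFP to 721 in dnMKL1 libraries, and the authors' deposited table gave a log2 fold change of -0.65 (SE 0.10) with an adjusted Wald p of 4.97e-10. The 95% interval ran from 0.560-fold to 0.728-fold, and under total-count scaling the value was -0.36 and the gene stayed called lower, the 1 member of the 47 that did. Eif2b1, the alpha subunit, was lower by less, with implied means of 869 and 748 and a log2 fold change of -0.22 (SE 0.08) in the authors' deposited table, which became 0.072 under total-count scaling. The remaining 3 subunits were not called: the authors' deposited table gave -0.08 (SE 0.09) for Eif2b3, -0.01 (SE 0.09) for Eif2b5 and 0.04 (SE 0.10) for Eif2b2. Whether the fall of Eif2b4 differed from the values of the other subunits was not tested. In the GENCODE annotation on GRCm38, Eif2b4 (chr5:31187558-31193430, minus strand) shares 204 exonic bases, 7.85% of its own, with Snx17 on the opposite strand. Use of strand in the counting is not given in the sources used here, so reads there cannot be assigned. Snx17 had a log2 fold change of -0.01 (SE 0.06) in the authors' deposited table.

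The eIF4 genes cover cap binding, unwinding and scaffolding. Of 12 members 3 (25%) were called lower and 0 higher, against 17.4% of all tested genes called lower. Among all tested genes the share called lower was 19.3% from 100 to 1000 normalized counts and 40.1% from 1000 to 10000. All 12 members had log2 fold changes below 0, with a median of -0.14, and under total-count scaling 10 of the 12 were above 0. The 3 called genes were the eIF4E family, the cap-binding proteins. Eif4e, the cap-binding protein that starts assembly, had implied means of 1912 normalized counts in GFP and 1388 in dnMKL1 libraries. The authors' deposited table gave a log2 fold change of -0.46 (SE 0.09) with an adjusted Wald p of 2.54e-06, and a 95% interval of 0.643-fold to 0.819-fold. Eif4e3, a relative that binds the cap by a different set of contacts, went from 840 to 629, with a log2 fold change of -0.42 (SE 0.12) and an adjusted Wald p of 0.00162 in the authors' deposited table. In the GENCODE annotation it shares 373 exonic bases, 14.8% of its own, with Gm20696 on the same strand, so the assignment of reads there is uncertain. Under total-count scaling both stayed below 0, at -0.17 for Eif4e and -0.13 for Eif4e3, and neither was called. Eif4e2 (4EHP), which occupies the cap without recruiting eIF4G, went from 959 to 846, a log2 fold change of -0.18 (SE 0.07) in the authors' deposited table that turned to 0.11 under total-count scaling.

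The scaffold and helicase genes of eIF4 were not called. Eif4g1, the main scaffold, had implied means of 4670 normalized counts in GFP and 3983 in dnMKL1 libraries and a log2 fold change of -0.23 (SE 0.10) in the authors' deposited table, with an adjusted Wald p of 0.0642. Eif4g2, a scaffold that lacks the eIF4E-binding site, was the member with the highest base mean, 25397 normalized counts. The authors' deposited table put its log2 fold change at -0.11 (SE 0.07), with a 95% interval of 0.843-fold to 1.02-fold. For the RNA helicases the authors' deposited table gave -0.03 (SE 0.08) for Eif4a1, -0.03 (SE 0.09) for Eif4a2 and -0.08 (SE 0.10) for Eif4a3, the last a part of the exon junction complex. The other 4, Eif4b and Eif4h (cofactors of the helicase), Eif4g3 and the eIF4E transporter Eif4enif1, lay between -0.20 and -0.08. Eif4enif1 had the largest SE of the 47, 0.24, and its interval of 0.625-fold to 1.21-fold leaves the size of any change wide.

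eIF3 is the largest initiation factor, and its genes had a median absolute log2 fold change of 0.063, the lowest of the 6 groups of members. Of 12 genes 1 was called higher and 0 lower (8.33% called, against 34.1% of all tested genes). There were 6 values above 0 and 6 below, with a range from -0.15 (Eif3g) to 0.21 (Eif3h) and a median of 0.020. Eif3h had implied means of 996 in GFP and 1151 in dnMKL1 libraries. The log2 fold change was 0.21 (SE 0.08) in the authors' deposited table, with an adjusted Wald p of 0.0208. Eif3b was next at 0.19 (SE 0.08) with an adjusted Wald p of 0.0749 in the authors' deposited table. Eif3l and Eif3f were closest to no difference, with 95% intervals of 0.925-fold to 1.07-fold and 0.896-fold to 1.11-fold. Per kilobase of transcript, base means of the 12 ran from 218 normalized counts (Eif3f) to 1188 (Eif3m) with a median of 736. Under total-count scaling all 12 were above 0.

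In the group of start codon and initiator tRNA factors and their relatives, 1 of 11 was called lower and 0 higher. That is 9.09% called, against 34.1% of all tested genes. Eif1, which guards against starting at the wrong codon, went from 4022 normalized counts in GFP to 3295 in dnMKL1 libraries, a log2 fold change of -0.29 (SE 0.09) in the authors' deposited table. Under total-count scaling this was 0.000625, so that its fall was as large as the difference between the scalings. Its relative Eif1b had a log2 fold change of -0.19 (SE 0.10) in the authors' deposited table and was not called. Per kilobase, Eif1 had a base mean of 2767 normalized counts and Eif1b one of 544. The eIF2 subunits Eif2s1 and Eif2s2 were at -0.11 (SE 0.06) and -0.10 (SE 0.08) on the log2 scale in the authors' deposited table, and neither was called. Eif5, the GTPase activator of eIF2, and Eif5b, the GTPase of subunit joining, had values of 0.05 (SE 0.08) and -0.11 (SE 0.09) there. The near-identical pair Eif1a and Eif1ax, between which reads may be shared, had values of 0.19 (SE 0.11) and -0.16 (SE 0.07) in the authors' deposited table. The others, Eif1ad, Eif2a and Eif2d, lay between -0.17 and -0.01.

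None of the 4 Argonaute genes was called, against 34.1% of all tested genes and 39.3% of those from 100 to 1000 normalized counts. With 4 genes this says little. In the authors' deposited table they ranged from -0.30 (SE 0.16) for Eif2c4 to 0.33 (SE 0.22) for Eif2c1, with base means from 101 to 347 normalized counts. Over all members not called, 38 in number, log2 fold changes lay between -0.30 and 0.33. The 95% intervals of 34 of them stayed within 0.5 of 0 on the log2 scale, which bounds a change under the authors' scaling to less than 1.41-fold either way. The intervals of Eif4enif1, Eif2c1, Eif2c2 and Eif2c4 reached past that limit.

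Among all genes, the share called and the direction varied with expression level. Members were well expressed, with a median base mean of 809 normalized counts. In the class from 100 to 1000 normalized counts 4 of 27 members were called (14.8%, against 39.3% of 6515 genes), with a median log2 fold change of -0.11 against 0.0076. From 1000 to 10000, 4 of 18 members were called (22.2%, against 54.5% of 1986 genes), with a median of -0.045 against -0.13. The median SE of members was lower than that of genes of their class in both, 0.093 against 0.12 and 0.081 against 0.096. Eif5a2 was the 1 member under 100, in a class where 26.7% of 3273 genes were called, and Eif4g2 the 1 above 10000, where 74.3% of 140 genes were called. These comparisons with other genes are descriptions and were not tested.

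**Figure D3:**
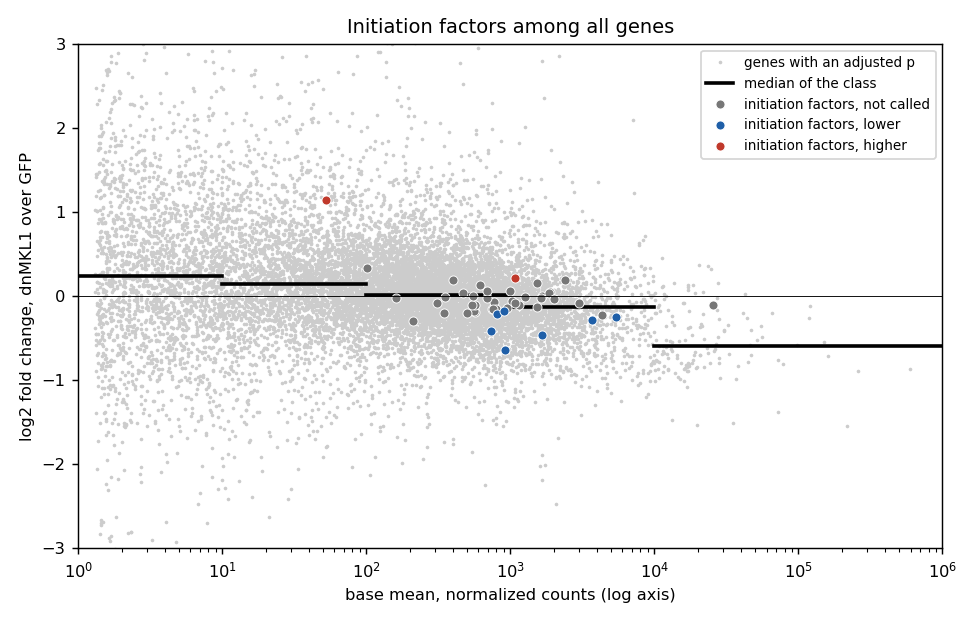
Log2 fold change (dnMKL1 over GFP, y axis) against base mean in normalized counts (log x axis) for the 14056 genes covered by the authors' adjustment in grey and the 47 members in colour, with black lines at the median of all genes in each level class; 102 genes lie beyond the y axis. Most members lie close to 0, with Eif5a2 farthest above it at 1.14 and Eif2b4 farthest below at -0.65, and the median of all genes falls with level.

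Genes that control initiation were measured beside the factors themselves. Among the genes that the rule left out, 2 of 9 were called higher and 0 lower (22.2% called, against 34.1% of all tested genes). Eif2ak3 (PERK), the eIF2 kinase of the endoplasmic reticulum, went from 89.2 normalized counts in GFP to 157 in dnMKL1 libraries, with a log2 fold change of 0.81 (SE 0.17) and an adjusted Wald p of 2.83e-05 in the authors' deposited table. Eif2ak2 (PKR), the kinase that senses double-stranded RNA, went from 108 to 166, with a log2 fold change of 0.62 (SE 0.20) there. Eif2ak1, activated by lack of heme, and Eif2ak4 (GCN2), activated by uncharged tRNA, were not called, with values of -0.07 (SE 0.08) and 0.14 (SE 0.16) in the authors' deposited table. The eIF4E-binding proteins were not called: the authors' deposited table gave -0.03 (SE 0.11) for Eif4ebp1, -0.25 (SE 0.17) for Eif4ebp2 and 0.27 (SE 0.43) for Eif4ebp3. Eif2s3x and Eif2s3y, X- and Y-linked copies of an eIF2 subunit, had SEs of 0.25 and 2.89 in the authors' deposited table. In the list of signalling genes 3 of 14 were called higher and 1 lower (28.6% called), with a median of -0.012. Ppp1r15a (GADD34), which directs a phosphatase to eIF2, had a log2 fold change of 0.83 (SE 0.17) in the authors' deposited table, and Mtor had -0.40 (SE 0.14), which fell short of the threshold under total-count scaling, at -0.11.

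Other steps of translation gave mixed counts. The share called was 66.7% for elongation, 57.1% for termination and recycling and 30% for helpers at the cap and poly(A) tail. It was 77.8% for the mitochondrial factors, against 34.1% of all tested genes. Of 6 elongation factor genes 2 were higher and 2 lower; the authors' deposited table gave 0.43 (SE 0.10) for Eef1a1, which delivers charged tRNA, and -0.57 (SE 0.08) for Eef1d, part of its exchange factor. Of 7 termination and recycling genes 0 were higher and 4 lower (4 at an unadjusted p under 0.05, against 33.8% of all genes), led by Mcts1 at -0.59 (SE 0.13) in the authors' deposited table, a partner of Denr in removing tRNA from ribosomes. Of 10 genes that help at the cap and poly(A) tail 2 were higher and 1 lower. The poly(A)-binding genes Pabpc1 and Pabpc4 had values of 0.30 (SE 0.07) and -0.40 (SE 0.11) in the authors' deposited table; under total-count scaling Pabpc4 was at -0.12 and not called. Of 82 tested genes, out of 86 taken by symbol as cytosolic ribosomal proteins, 2 were higher and 9 lower (13.4% called), with a median of -0.046. The symbol rule also took related genes such as Rps19bp1 and Rpl7l1, the latter among the 9 called lower. The farthest fall among those 9 was that of Rpl3l, a muscle form of Rpl3, at -1.40 (SE 0.24) in the authors' deposited table. The translation factors of mitochondria stood at a median of -0.65, with 7 of 9 lower and 0 higher (8 at an unadjusted p under 0.05, against 33.8% of all genes), and -0.36 under total-count scaling. Gfm1, a mitochondrial elongation factor, had -0.65 (SE 0.08) in the authors' deposited table. Whether any of these lists differed from the initiation factors was not tested.

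**Figure D4:**
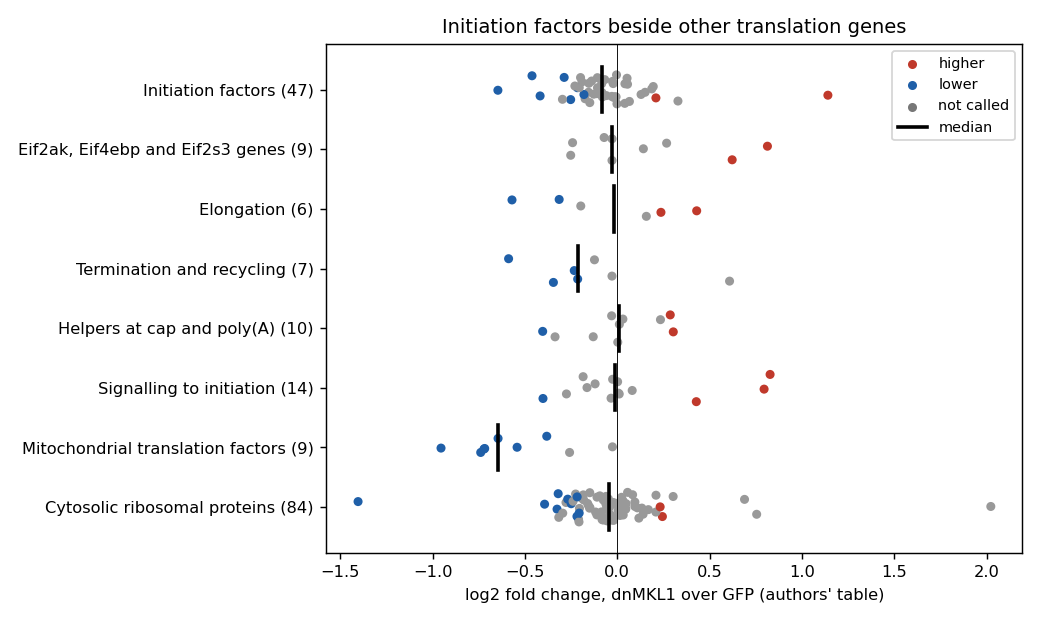
Log2 fold changes (dnMKL1 over GFP, x axis) of the 47 members and of 7 other lists of translation genes, each point a gene and each black line a list's median, with red for genes called higher and blue for genes called lower. The medians of the initiation factors (-0.084) and cytosolic ribosomal proteins (-0.046) lie near 0, and that of the mitochondrial translation factors lies at -0.65.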

How the data were processed

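Polyadenylated RNA of sorted cardiomyocytes was sequenced in 5 GFP and 5 dnMKL1 libraries. Per the labels' protocols, 10 ng of total RNA was amplified over 8 PCR cycles with a SMART-Seq kit and 500 pg of cDNA entered the Nextera XT preparation. Per the submitters' processing notes, reads were processed with CASAVA 1.8, STAR 2.5.3a and featureCounts (Subread 1.5.2) on mm10; annotation and use of strand are not given in the sources used here. The one table used is the authors' comparison, with the columns of a DESeq2 result per the file headers.

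The deposited base mean is a signal, the mean of normalized counts over libraries. The deposited fold change and its SE are log2 values, the deposited Wald statistic is a score, and the deposited p-values were checked: the Wald p was recomputed within 2.74e-07 and the Benjamini-Hochberg adjusted p within 1.44e-07. The sign was read from Mkl1. A count test had been planned in case of counts per library; the authors' own adjusted p under 0.05 was used instead, as planned for a table without them. Implied group means take the base mean as the average of equal groups. Size factors came from genes with 1 read in 1 library, and intervals (95%) and depth estimates cover only what the table holds. Annotations came from GENCODE M21 and RefSeq, both on GRCm38; 43 members matched by symbol and 4 by an older symbol. Levels per kilobase used the longest protein-coding transcript. Functions were tested on simulated data (Python 3.11.15, pandas 2.3.3, SciPy 1.17.1, matplotlib 3.10.9).

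The members and lists were chosen with earlier results of these data known. Every member may be named. Full statistics were given for called members with an absolute log2 fold change of at least 0.5 or among the 3 smallest p-values of a direction, and of each related list the called gene of smallest p in each direction. Snx17 was chosen after its overlap was seen. Comparisons of proteins between paralogs were not analysed here.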

Additional observations from a re-analysis of the deposited data

How the results depend on the processing

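The 9 called members (2 higher, 7 lower) became 6 at an adjusted p under 0.01 (1 higher, 5 lower; Eif3h, Eif4e2 and Eif2b1 no longer passed), 12 under 0.1 and 8 with adjustment over all p-values (without Eif4e2). With a base mean of at least 100, Eif5a2 was not tested, which left 1 higher and 7 lower. Requiring an absolute log2 fold change of 0.5 or more kept 2 members (1 higher, 1 lower) and of all genes 2735 (1489 higher, 1246 lower), since fewer genes can pass; requiring 1 or more kept 1 member (1 higher, 0 lower) and 942 genes (654 higher, 288 lower). Median centring and a base mean of at least 10 kept the members' counts at 9, 2 and 7.

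Total-count scaling, which adds a constant and here kept the deposited SEs, gave 28 called members (27 higher, 1 lower). It gave 5685 genes higher and 927 lower, and moved the members' median to 0.20. Of the 7 lower calls 6 were lost, those of Eif4e and Eif4e3 at values still below 0 and those of Eif1, Eif5a, Eif2b1 and Eif4e2 at values above 0. The sign turned in 31 members: Eif5b 0.18, Eif4e2 0.11, Eif2d 0.22, Eif4enif1 0.089, Eif4a1 0.26, Eif5a 0.036, Eif1 0.000625, Eif4a3 0.20, Eif2s1 0.18, Eif3e 0.27, Eif2c2 0.082, Eif3l 0.28, Eif4b 0.15, Eif2b5 0.28, Eif4g1 0.059, Eif4a2 0.26, Eif1ad 0.11, Eif3m 0.16, Eif2s2 0.19, Eif2a 0.27, Eif2b3 0.20, Eif2c3 0.27, Eif3i 0.23, Eif4g3 0.14, Eif2b1 0.072, Eif4h 0.21, Eif3f 0.29, Eif4g2 0.18, Eif3g 0.13, Eif1b 0.097, Eif1ax 0.13. Outside the members it turned Eif2ak1 0.22, Eif4ebp1 0.26, Eif4ebp2 0.036, Eif2s3x 0.26, Eif2s3y 0.046, Snx17 0.28. The lower calls of Mtor (-0.11), Pabpc4 (-0.12) and Gapdh (-0.076) were lost. Mtor also missed an adjusted p of 0.01. Group medians turned to 0.18 (start codon and initiator tRNA factors), 0.20 (eIF2B), 0.14 (eIF4), 0.18 (Argonaute), 0.26 (genes left out by the rule), 0.27 (elongation), 0.074 (termination and recycling), 0.28 (signalling) and 0.24 (cytosolic ribosomal proteins). With a base mean of at least 100 the eIF5A and eIF6 median, then without Eif5a2, was -0.062.

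No paired analysis was possible because the table holds no values per library; that is also why count tests, alternatives for normalized values and fits that leave out 1 library, all planned, were not run, and whether 1 library decides a value is unknown.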
